A study of Homo sapiens with 4 samples.

Results

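The genes PLAU, PLAUR, PLAT, MMP14, MMP15, ADAM10, ADAM17, TIMP1 and TIMP2, which encode proteases of cell invasion, a receptor and inhibitors, were described across 4 human RNA-seq libraries. They were taken by symbol from the count tables, which held 52402 different symbols, and all 9 were found, with 1 row each. The libraries came from cultures labelled with the ovarian cancer lines SKOV3 and OVCAR3, each as a mock control (genotype Control) and as a CRISPR-Cas9 knockout (KO) of the envelope gene of the endogenous retrovirus HERV-K119. All 4 cultures, controls included, had been transfected and were given hygromycin, a selection drug, at 100 μg/mL for 2 days from about 18 h after transfection. Each of the groups, mock and KO of either line, was 1 library, so the ratios within a line carry no replicate error. The labels do not say whether the knockout cells were a pool or a clone, and the targeted provirus was not analysed here.

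Tumour cells pass through basement membrane and stroma with the help of proteases held at their surface. Urokinase (PLAU), bound to its receptor (PLAUR), turns plasminogen into plasmin, which cuts fibrin and matrix proteins, and tissue plasminogen activator (PLAT) acts on the same substrate mainly at fibrin. The membrane-type matrix metalloproteases MMP14 and MMP15 cut collagens and other matrix proteins at the cell surface and activate pro-MMP2. ADAM10 and ADAM17 are sheddases that release the outer parts of membrane proteins such as cadherins, growth factor precursors and cytokines. TIMP1 and TIMP2 are secreted inhibitors of metalloproteases, and TIMP2 also takes part in the activation of pro-MMP2 by MMP14.

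The libraries held between 15145483 and 22057693 counts. Levels below are CPM, counts scaled to library size, adjusted by the trimmed mean of M values (TMM), ratios are log2 with a prior count of 2, and brackets hold exact 95% intervals of the ratio of counts, which cover counting error only. Mitochondrially encoded transcripts took between 5.16% and 5.93% of the counts in 3 libraries and 21.9% in OVCAR3 KO. All 8 epithelial markers were at 1 CPM or more in every library, with summed levels of 5728, 5323, 7943 and 2254 CPM in SKOV3 mock, SKOV3 KO, OVCAR3 mock and OVCAR3 KO. Of 10 fibroblast and mesenchymal markers, COL3A1, LUM and POSTN were at 0 in all 4 libraries. The list summed to between 29.1 and 54.4 CPM, most of it COL1A1 and FN1. COL1A1 had 325 counts in OVCAR3 mock and 516 in OVCAR3 KO, and FN1 had 538 and 158. The leukocyte list summed to between 9.91 and 37.1 CPM, nearly all of it CD68, with PTPRC and CD3E at 0, and the endothelial list to between 0.487 and 2.31 CPM. The markers that tell the lines apart did not all follow the labels: CDKN2A, a locus known to be deleted in SKOV3, was at 90.6 and 91.2 CPM in the SKOV3 libraries, and WT1, known to be expressed in OVCAR3, was at 0 in all 4. The rest of the line markers are given as SKOV3 mock, SKOV3 KO, OVCAR3 mock and OVCAR3 KO. MUC16 was at 0.044, 0.063, 2.74 and 6.18 CPM, PAX8 at 4.74, 5.64, 8.83 and 3.33, and ERBB2 at 58.5, 55.7, 73.3 and 32.0. Line names below are therefore those of the labels.

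The genes lie on separate chromosomes, and the data bear on their promoters only through the RNA levels. A RefSeq window (GRCh38.p14) of 250 bases before a transcription start was found for 7 of the 9 genes, 8 windows in all, since PLAU has a pair of them. Each was searched on both strands for TGANTCA (the AP-1 motif), GGGCGG (the GC box bound by Sp1 family factors) and TATAAA, and none of these motifs overlapped another in the windows. One AP-1 match was found, in PLAUR, 186 bases before its start, against 6.57% of 35116 background windows of the same length. GC boxes were in 6 of the 8 windows, all but that of PLAUR and the upstream one of PLAU, against 42.6% of all windows, with 5 in MMP15, 3 in ADAM17, 3 in the downstream window of PLAU, 2 in TIMP1 and 1 each in MMP14 and ADAM10. TATAAA was in none of the 8 windows and in 10.7% of all windows. The stretches outside annotated untranslated regions are shown for the 2 membrane-type metalloproteases, whose ratios in OVCAR3 differed most within a pair of paralogs, and for TIMP1, with GC boxes in capitals, 5′ to 3′ on the + strand. A match describes letters only and is no evidence that a factor binds.
MMP14 (chr14:22836335-22836556): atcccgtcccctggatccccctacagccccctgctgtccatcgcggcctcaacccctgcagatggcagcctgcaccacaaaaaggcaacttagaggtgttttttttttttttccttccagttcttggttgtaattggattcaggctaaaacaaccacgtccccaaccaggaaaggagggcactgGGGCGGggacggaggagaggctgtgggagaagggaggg
MMP15 (chr16:58025504-58025565): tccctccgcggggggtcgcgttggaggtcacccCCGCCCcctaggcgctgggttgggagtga
TIMP1 (chrX:47582186-47582312): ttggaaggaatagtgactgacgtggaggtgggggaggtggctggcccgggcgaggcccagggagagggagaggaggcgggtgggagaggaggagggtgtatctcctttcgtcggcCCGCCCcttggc

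Within a library the genes spanned a wide range of levels. Compared per kilobase of exon, TIMP1 was highest and PLAT lowest in all 4 libraries, with TIMP1 at 73.7, 78.0, 95.5 and 48.5 CPM per kilobase and PLAT at 2.87, 2.02, 1.90 and 1.38 in SKOV3 mock, SKOV3 KO, OVCAR3 mock and OVCAR3 KO. PLAU was second in both SKOV3 libraries, TIMP2 second in OVCAR3 mock at 60.4 CPM per kilobase, and ADAM10 second in OVCAR3 KO at 20.1. These places were the same when the longest transcript was used as the length. The order of the genes between them depended on the length used and is not ranked here.

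**Figure D1:**
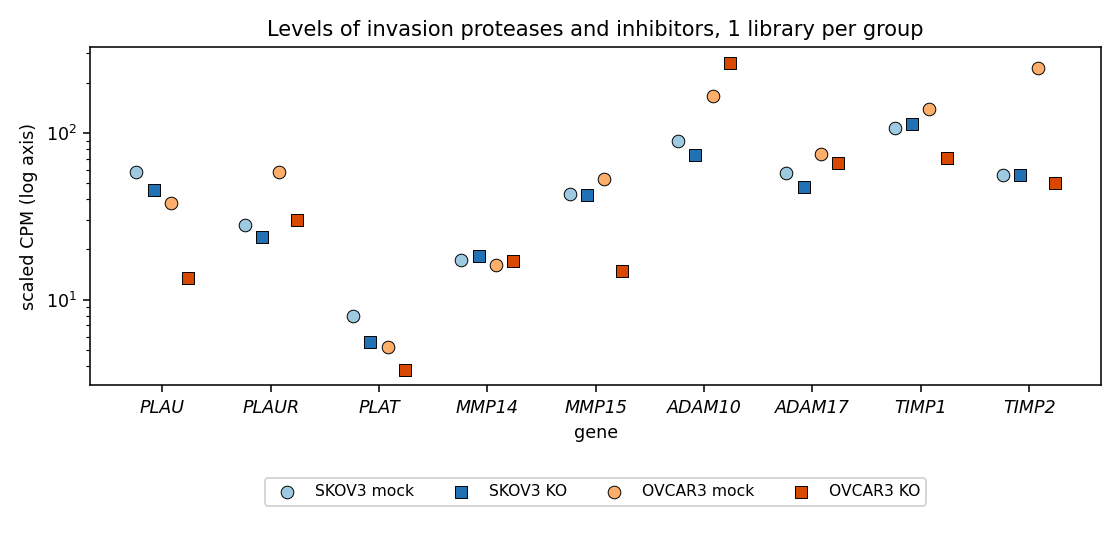
Scaled CPM (log axis) of the 9 genes in the 4 libraries, 1 point per library, mock as circles and KO as squares. TIMP2 stands at 246 CPM in OVCAR3 mock and between 50.4 and 56.0 CPM in the other 3 libraries, and MMP14 lies between 16.1 and 18.3 CPM in all 4.

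PLAU, which encodes urokinase, the plasminogen activator of migrating cells (chromosome 10, 73908832 to 73917494, + strand), was lower in the knockout library of both lines. It was at 58.1 CPM in SKOV3 mock, 45.8 in SKOV3 KO, 38.2 in OVCAR3 mock and 13.5 in OVCAR3 KO, from 1311, 722, 627 and 199 counts. OVCAR3 KO thus held the lowest level of the 4 and SKOV3 mock the highest. The log2 ratio of KO over mock was -1.49 (-1.74 to -1.27) in OVCAR3, a 2.81-fold lower level, and -0.34 (-0.48 to -0.21) in SKOV3. C10orf55 overlaps PLAU on the opposite strand and had between 5 and 9 counts per library.

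PLAUR encodes the membrane-anchored urokinase receptor (chromosome 19, 43646095 to 43670169, - strand). Its level was 28.0 CPM in SKOV3 mock, 23.7 in SKOV3 KO, 58.7 in OVCAR3 mock and 29.9 in OVCAR3 KO. OVCAR3 mock stood above the other 3 libraries, which lay close together. The KO over mock ratio was -0.97 (-1.14 to -0.81) in OVCAR3, which is just inside a 2-fold difference, and -0.24 (-0.43 to -0.05) in SKOV3. With library totals, DESeq2 size factors or TMM over all genes in place of the scaling used, the OVCAR3 ratio was -1.09, -1.18 or -1.26, past 2-fold.

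PLAT, the tissue plasminogen activator (chromosome 8, 42174718 to 42207565, - strand), was the least abundant of the 9, at 7.93, 5.58, 5.23 and 3.80 CPM in the same order, from 179, 88, 86 and 56 counts. Each KO library was below its mock, by a log2 ratio of -0.50 (-0.89 to -0.13) in SKOV3 and -0.45 (-0.97 to 0.04) in OVCAR3. The interval in OVCAR3 includes 0, so a difference was not detectable there at this depth. PLAU counts were 7.29 times those of PLAT in OVCAR3 mock and 3.55 times in OVCAR3 KO, a log2 change of -1.04 (-1.59 to -0.47).

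The 2 membrane-type metalloproteases differed in OVCAR3. MMP14, also called MT1-MMP (chromosome 14, 22836585 to 22847758, + strand), was at 17.4, 18.3, 16.1 and 17.0 CPM, the narrowest range of the 9 genes. Its KO over mock ratio was 0.07 (-0.15 to 0.29) in SKOV3 and 0.07 (-0.18 to 0.33) in OVCAR3. The OVCAR3 value depended on the processing: it was -0.13 with DESeq2 size factors, -0.04 with library totals, -0.22 with TMM over all genes and 0.64 once a trend on GC content and transcript length was taken out.

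MMP15, also called MT2-MMP (chromosome 16, 58025754 to 58046901, + strand), was at 43.0 CPM in SKOV3 mock, 42.4 in SKOV3 KO, 52.7 in OVCAR3 mock and 14.8 in OVCAR3 KO. OVCAR3 KO stood below the other 3 libraries. The ratio was -1.82 (-2.05 to -1.62) in OVCAR3, 3.54-fold lower, and -0.02 (-0.17 to 0.12) in SKOV3, where the sign turned to 0.0034 with library totals. In OVCAR3 mock there were 0.306 MMP14 counts per MMP15 count, and in OVCAR3 KO 1.15, a log2 change of 1.90 (1.57 to 2.24). This ratio is taken within a library and needs no scaling factor. In SKOV3 it was 0.404 in mock and 0.430 in KO, a change of 0.09 (-0.18 to 0.36).

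The sheddases differed less between mock and KO than PLAU, MMP15 or TIMP2 did in OVCAR3. ADAM10, which cleaves cadherins and Notch receptors (chromosome 15, 58588809 to 58749707, - strand), was at 89.1 CPM in SKOV3 mock, 74.0 in SKOV3 KO, 167 in OVCAR3 mock and 264 in OVCAR3 KO. Both OVCAR3 libraries were above both SKOV3 libraries. The KO library was lower than mock in SKOV3, at -0.27 (-0.37 to -0.16), and higher in OVCAR3, at 0.66 (0.59 to 0.73). It was the only one of the 9 whose intervals lay on opposite sides of 0 in the 2 lines. Over all measured genes, 18.1% had an interval below 0 in SKOV3 and 44.8% one above 0 in OVCAR3. The share with both was not computed, so nothing is read from this count. The difference between the lines was not tested, since 1 library per group leaves no error for it. The OVCAR3 ratio was 0.13 with the trend on GC content and transcript length taken out.

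ADAM17, which releases TNF and ligands of the EGF receptor (chromosome 2, 9488486 to 9555830, - strand), was at 57.4, 47.4, 74.7 and 66.5 CPM in the same order. Each KO library was lower than its mock, by -0.27 (-0.41 to -0.14) in SKOV3 and -0.17 (-0.29 to -0.05) in OVCAR3, or -0.61 in OVCAR3 with the trend removed. IAH1 overlaps an exon of ADAM17 on the opposite strand and had 594, 302, 333 and 571 counts, and the strand setting of the counting is not given in the sources used here. ADAM10 counts were 2.24 times those of ADAM17 in OVCAR3 mock and 3.97 times in OVCAR3 KO, against 1.55 and 1.56 times in SKOV3 mock and KO.

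Of the inhibitors, TIMP2 had the largest ratio of the 9 genes. TIMP2 (chromosome 17, 78852977 to 78925387, - strand) was at 56.0 CPM in SKOV3 mock, 55.6 in SKOV3 KO, 246 in OVCAR3 mock and 50.4 in OVCAR3 KO, from 1265, 877, 4043 and 743 counts. OVCAR3 mock stood far above the other 3 libraries, and OVCAR3 KO lay close to both SKOV3 libraries. The KO over mock ratio in OVCAR3 was -2.28 (-2.40 to -2.17), 4.87-fold lower, and -0.01 (-0.14 to 0.11) in SKOV3, where library totals turned it to 0.014.

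TIMP1, the more abundant inhibitor per kilobase (chromosome X, 47582436 to 47586789, + strand), was at 108, 114, 139 and 70.7 CPM. OVCAR3 KO was the lowest and OVCAR3 mock the highest. The ratio in OVCAR3 was -0.98 (-1.08 to -0.87), and past 2-fold at -1.09, -1.19 and -1.27 with library totals, DESeq2 size factors and TMM over all genes. In SKOV3 it was 0.08 (-0.01 to 0.17). SYN1, in whose intron TIMP1 lies on the opposite strand, had between 5 and 23 counts.

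**Figure D2:**
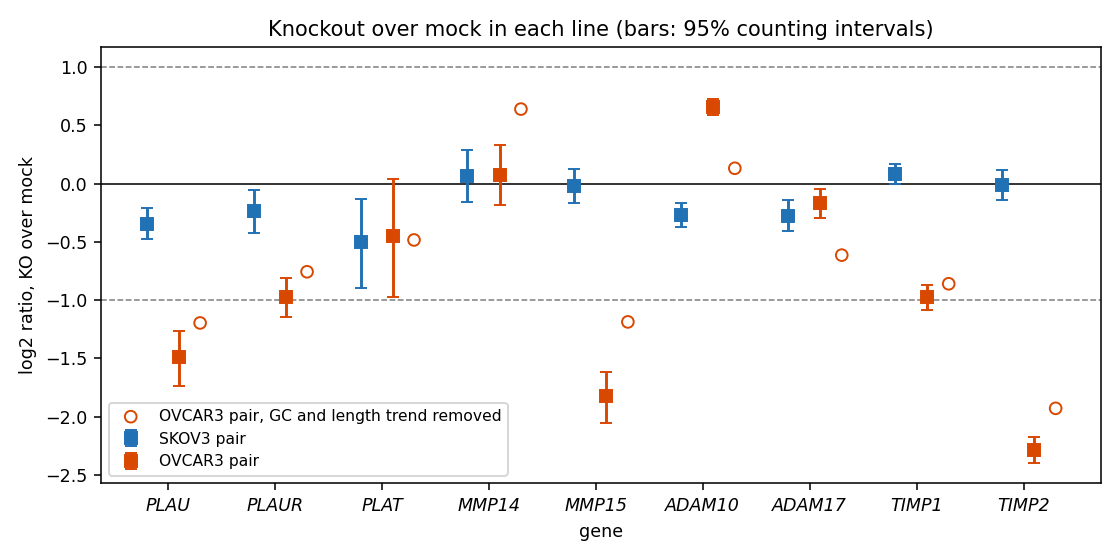
Log2 ratio of KO over mock for the 9 genes in the SKOV3 pair (blue) and the OVCAR3 pair (orange), with 95% counting intervals as bars, and hollow circles for the OVCAR3 pair with the trend on GC content and transcript length taken out. Dashed lines mark 2-fold: PLAU, MMP15 and TIMP2 lie below the lower one in OVCAR3 with and without the trend, and no gene passes either line in SKOV3.

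The size rule took as higher or lower any gene whose log2 ratio was at least 1 in size, with 1 CPM or more in at least 1 of the 2 libraries. In SKOV3, 0 of 9 genes passed this rule, which 1.54% of 13524 measured genes did (0.799% higher and 0.739% lower). Counting intervals lay below 0 for 5 genes (PLAU, PLAUR, PLAT, ADAM10 and ADAM17) and above 0 for none of the 9, while 18.1% of all measured genes had an interval below 0 and 35.7% one that excluded it. The median ratio of the 9 was -0.24, against 0.01 over all measured genes. In OVCAR3, 3 of 9 genes were lower (PLAU, MMP15 and TIMP2) and 0 higher, while of 15560 measured genes 15.4% were lower and 22.5% higher, 37.9% in all, and 18.2% of the protein-coding genes were lower. Intervals lay below 0 for 6 genes and above 0 for ADAM10, against 34.9% and 44.8% of all measured genes, 79.7% in all. The median of the 9 was -0.97, against 0.16 over all measured genes and -0.02 over protein-coding genes. With DESeq2 size factors, library totals or TMM over all genes 5 of the 9 were lower, PLAUR and TIMP1 in addition, and the median of all genes moved to -0.07, 0.04 or -0.17. The share of all genes lower under these scalings is not given here, and the 15.4% does not apply to them. Nothing is therefore read from the rise to 5. In cultures, a lower level in a library can come from fewer cells with the transcript or from less of it per cell, and these cannot be told apart.

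Ratios in the OVCAR3 pair moved with the GC content of the transcripts over the whole transcriptome. Across 5 equal groups of protein-coding genes ordered by GC content, the median ratio was 0.47, 0.22, -0.18, -0.50 and -0.70, from the lowest to the highest. The 2 sheddases are low in GC (38.3% for ADAM10, 38.5% for ADAM17), PLAT holds 45.6%, and the other 6 genes hold between 53.7% (TIMP2) and 66.0% (MMP15). Removal of a smooth trend on GC content and length left PLAU at -1.20, MMP15 at -1.19 and TIMP2 at -1.93, all still past 2-fold, and PLAUR at -0.76, TIMP1 at -0.86 and PLAT at -0.48. The raised mitochondrial share and the lower epithelial sum given above belong to the same OVCAR3 KO library, and their part in these ratios was not tested. With the mitochondrial rows left out before scaling, the same number of genes, 3 of 9, was lower.

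**Figure D3:**
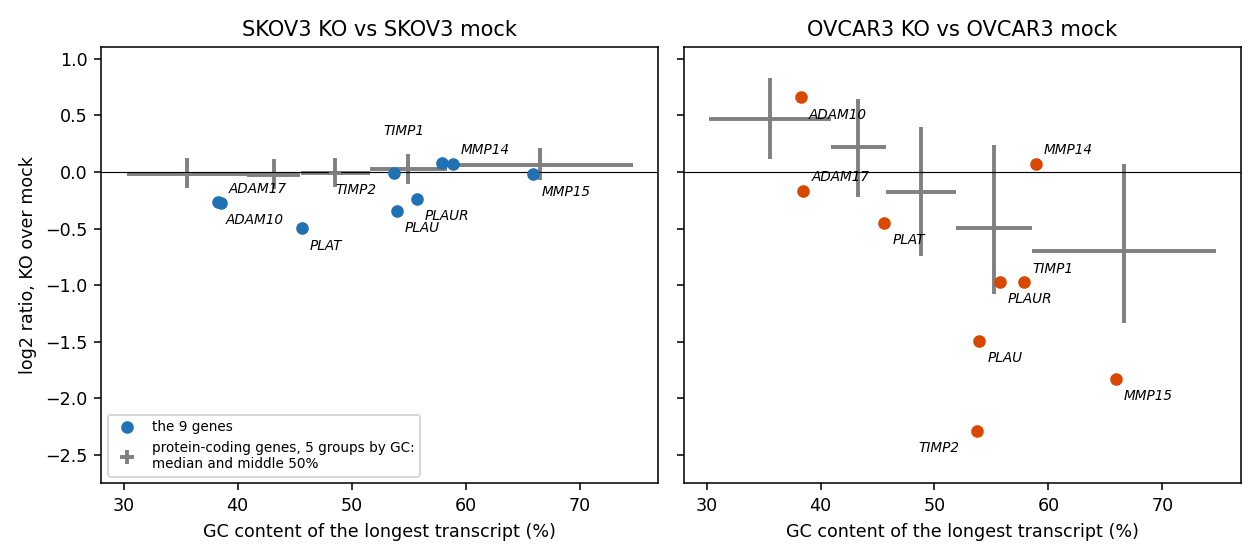
Log2 ratio of KO over mock against the GC content of the longest transcript (%) in the SKOV3 pair (left) and the OVCAR3 pair (right). Grey crosses give the median and middle 50% of protein-coding genes in 5 equal groups by GC content, falling from 0.47 to -0.70 in OVCAR3 and staying between -0.03 and 0.06 in SKOV3, and points are the 9 genes.

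Ratios between the counts of an enzyme and of its partner in the same library do not depend on the scaling. For 10 pairs, chosen after their values were seen, the change of the count ratio from mock to KO was computed in each line. In OVCAR3, where 79.7% of single genes had an interval that excluded 0, those of all 10 overlapping pairs did, and in SKOV3, where 35.7% of single genes did, that of ADAM10 to TIMP1 alone, at -0.35 (-0.49 to -0.21). No share over other gene pairs was computed, so nothing is read from these counts. There were 0.0655 MMP14 counts per TIMP2 count in OVCAR3 mock and 0.336 in OVCAR3 KO, a log2 change of 2.36 (2.08 to 2.64), while SKOV3 mock and KO held 0.311 and 0.328. MMP14 to TIMP1 changed by 1.05 (0.77 to 1.33) and MMP15 to TIMP2 by 0.45 (0.20 to 0.70) in OVCAR3. ADAM10 to TIMP1 went from 1.20 to 3.73 counts per count, a change of 1.64 (1.51 to 1.76), or 0.99 with the trend on GC content and length removed. ADAM17 to TIMP3, its main tissue inhibitor, changed by 1.73 (1.40 to 2.08), or 1.08 with the trend removed. Between the 2 inhibitors the count ratio rose: TIMP1, above TIMP2 per kilobase in both OVCAR3 libraries, had 0.566 counts per TIMP2 count in OVCAR3 mock and 1.40 in OVCAR3 KO, next to 1.92 and 2.05 in SKOV3 mock and KO. PLAU to PLAUR changed by -0.52 (-0.81 to -0.24), from 0.650 to 0.452 counts per count.

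**Figure D4:**
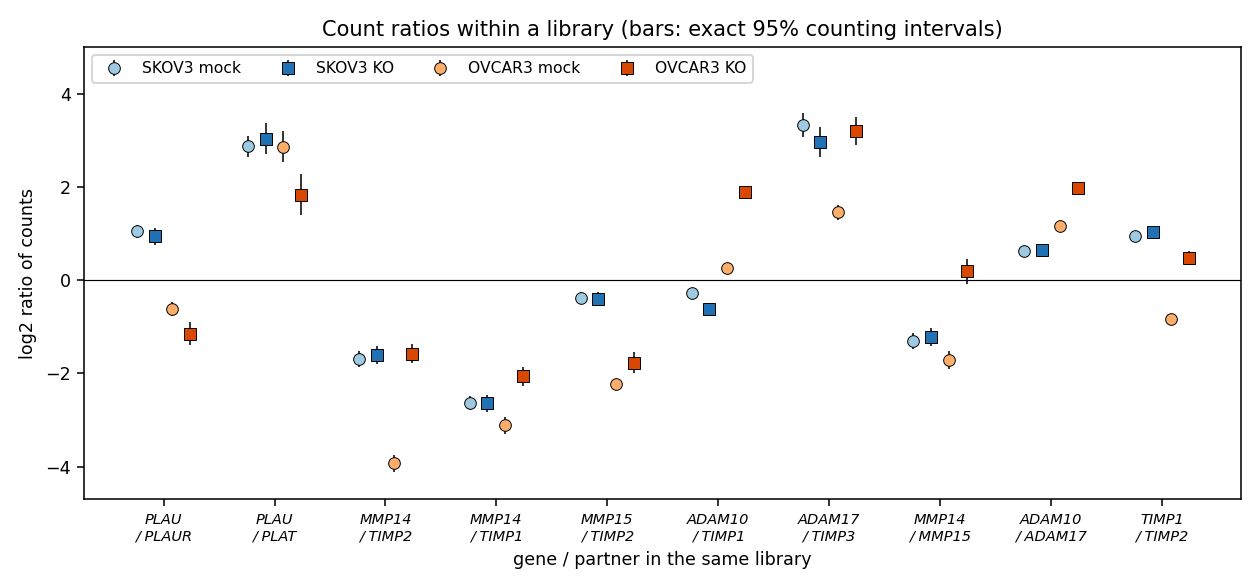
Log2 ratio of the counts of a gene to those of its partner in the same library for 10 pairs, with exact 95% counting intervals. In the 4 pairs with TIMP2 or TIMP3 as the partner OVCAR3 mock is the lowest of the 4 libraries.

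Around the 9 genes, 147 further genes of the same systems were listed by role. Their counts in OVCAR3 stand beside the 15.4% of all measured genes that were lower and the 22.5% that were higher there, and their medians beside 0.16 over all measured genes, or -0.09 with the trend removed. The listed genes measured there were all protein-coding. Of all protein-coding genes 18.2% were lower, and the share higher is not given here. The median ratio of protein-coding genes was -0.02. Of 14 measured partners of the plasminogen system 6 were lower and 1 higher in OVCAR3, with a median of -0.37 with and without the trend. The lower ones included IGF2R, a multiligand receptor, at -1.76, SERPINB8, a serpin, at -1.34 and F12, a coagulation factor that can activate plasminogen, at -1.30, or -0.83 with the trend removed, while LRP1, which takes up protease and inhibitor complexes, was at 1.04. In SKOV3, 0 of 13 passed the size rule, with S100A10, a plasminogen receptor subunit, at -0.29, SERPINE2, a serpin that inhibits thrombin and plasminogen activators, at -0.17 and PLGRKT, another plasminogen receptor, at 0.24. PLG, which encodes plasminogen, the substrate of both activators, had 0 counts in each of the 4 libraries, which allows up to 3 counts in each.

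Few other matrix metalloproteases were expressed. Of 21 listed, 7 were measured in the OVCAR3 pair and 3 in the SKOV3 pair. MMP2, the substrate of MMP14, had at most 6 counts in a library, and MMP9 at most 7. In OVCAR3, MMP23B, MMP24 and MMP25 were past the size rule, from 3 to 26, 1 to 36 and 15 to 40 counts. Each of these 3 was below 1 CPM in mock and counted as measured only through the KO library, so its call is no support for a direction. MMP17, another membrane-anchored member, was at 0.61 (0.31 to 0.93) in SKOV3. Of the other ADAM and ADAMTS proteases 12 were measured in OVCAR3, 6 of them only through the KO library, and those 6 were all past the size rule, which this selection favours. Among the genes with 100 counts or more over the pair, 2 were higher and 1 lower. ADAMTS10 was at 2.22 (1.77 CPM in mock, 8.62 in KO), ADAMTS7 at 1.19 (13.0 and 29.9 CPM) and ADAM15 at -1.33, or -0.67 with the trend removed. In SKOV3, 0 of 8 passed the rule, with ADAM9 at -0.37 and ADAM19 at -0.14.

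Of the other metalloprotease inhibitors, TIMP3 was lower in OVCAR3 at -1.89 (27.1 CPM in mock, 7.26 in KO) and RECK, a membrane-anchored inhibitor, higher at 1.36 (3.65 in mock, 9.57 in KO). In all, 2 of 5 were lower, 1 of these measured only through the mock library, and 1 higher. Of 16 activators and partners of the sheddases and membrane-type metalloproteases 4 were lower and 0 higher in OVCAR3, with a median of -0.44, or -0.13 with the trend removed, close to that of all genes. They included BSG, known as the metalloprotease inducer EMMPRIN, at -2.72 (754 CPM in mock, 115 in KO), FURIN, the convertase that removes the propeptides of MMP14, ADAM10 and ADAM17, at -2.07 (63.1 and 14.9 CPM), and TSPAN33, a tetraspanin partner of ADAM10, at -1.45. In SKOV3, 0 of 16 passed, with TSPAN5 at -0.26, RHBDF2, which matures ADAM17, at -0.24, TSPAN33 at 0.28 and PCSK7, a convertase, at 0.23.

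Of 18 measured substrates of the sheddases 10 were lower and 0 higher in OVCAR3, against 15.4% and 22.5% of all measured genes, with a median of -1.20, or -0.95 with the trend removed. Of all protein-coding genes, 18.2% were lower. HBEGF, a ligand of the EGF receptor, was at -2.22, IL6R, the interleukin 6 receptor, at -1.93 and CXCL16, a membrane-bound chemokine, at -1.87. In SKOV3, 0 of 20 passed, and AREG, another EGF receptor ligand, was at -0.47 (682 CPM in mock, 492 in KO), ALCAM, an adhesion molecule, at -0.37 and EFNA1 at 0.36.

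Among 14 cell-surface serine proteases and inhibitors 5 were lower and 1 higher in OVCAR3, with a median of -0.61, or -0.37 with the trend removed. KLK6, a kallikrein, was at -2.44, SPINT1, the inhibitor of matriptase, at -2.28 and ST14, which encodes matriptase, at -1.72. In SKOV3, 1 of 11 was higher and 0 lower, and SPINT2 was at -0.39, KLK8 at -0.26, DPP4 at 0.38 and ST14 at 0.14. Of 13 lysosomal cathepsins and cystatins 5 were lower and 1 higher in OVCAR3, with a median of -0.06, or -0.47 with the trend removed. CTSD, an aspartic protease, was at -2.53, CTSA at -1.60, CST3, a cystatin, at -1.12 and CTSK at 1.25. In SKOV3, 0 of 13 passed, with CTSL at -0.40, CTSV at -0.39 and CSTB at 0.12. Over all lists, 33 of 99 measured genes were lower and 16 higher in OVCAR3, with a median of -0.35, while 15.4% of all measured genes were lower and 22.5% higher. Of all protein-coding genes, the type of all 99, 18.2% were lower, and their median was -0.02. Of the 16 listed genes that were higher, 9 were measured only through the KO library. At a minimum of 5 CPM 32 of 82 were lower and 5 higher, and with TMM over all genes 39 of 99 were lower and 10 higher. With the trend on GC content and length removed the gap was smaller, at 26 of 99 lower and 17 higher. The shares of all genes under these 3 settings are not given here, and the 15.4% and 22.5% do not apply to them. Of 89 measured in SKOV3, 0 were lower and 1 higher, with a median of -0.04.

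**Figure D5:**
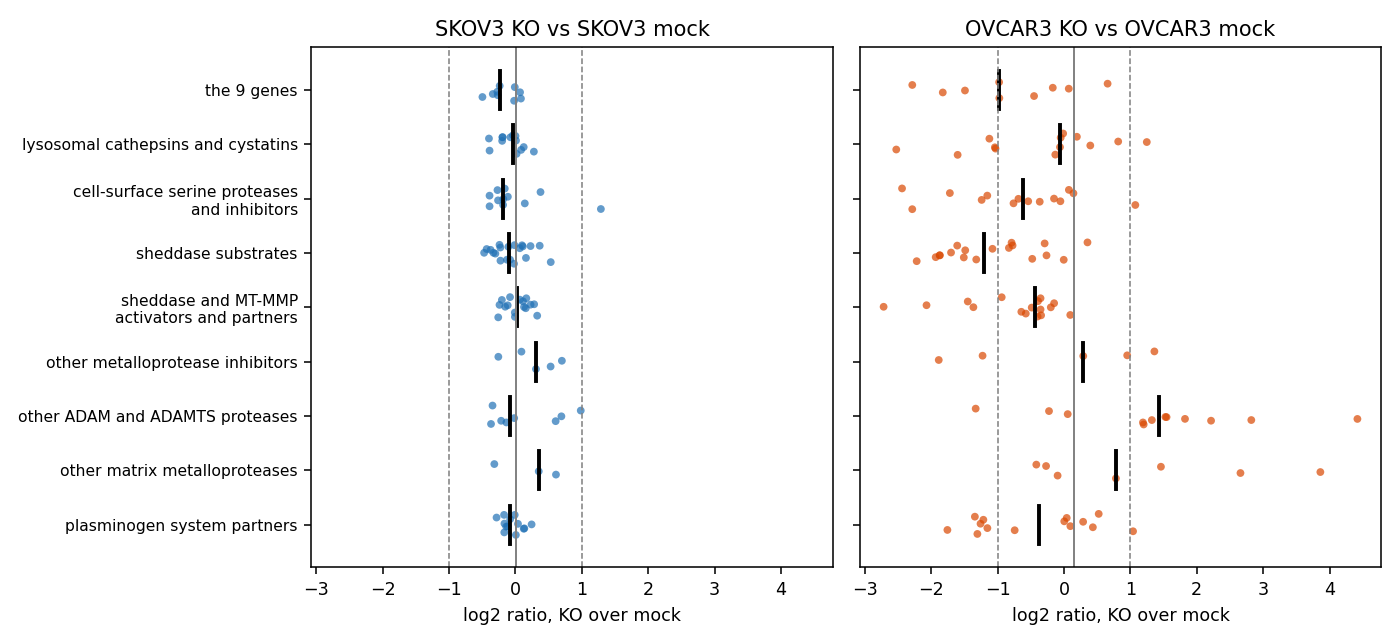
Log2 ratio of KO over mock for each measured gene of the 8 role lists and for the 9 genes, in the SKOV3 pair (left) and the OVCAR3 pair (right). Black bars give the median of a list, the grey line the median of all measured genes (0.01 and 0.16), and dashed lines 2-fold. In OVCAR3 the bars of the matrix metalloprotease and ADAM lists rest in part on genes measured only through the KO library.

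The mock libraries were compared between the lines. TIMP2 was higher in OVCAR3 mock than in SKOV3 mock, at 2.13 (2.04 to 2.23), 4.39-fold, and so was PLAUR, at 1.07 (0.92 to 1.22), which was 0.98 with the trend removed. So 2 of 9 genes were higher by the size rule, and 0 lower, while of 13721 measured genes 9.47% were higher and 5.52% lower, 15% in all. ADAM10 was at 0.91, ADAM17 at 0.38, TIMP1 at 0.37 and MMP15 at 0.29, which turned to -0.22 with the trend removed. PLAU was at -0.60, PLAT at -0.59 and MMP14 at -0.11 (-0.34 to 0.12). Of the listed genes around them, 25 of 92 were higher in OVCAR3 mock and 2 lower. The higher ones included SLPI, a secreted protease inhibitor, at 3.83, TMPRSS4 at 3.23 and TIMP3 at 2.23. Of the 92, 7 were measured only through OVCAR3 mock, 5 of them higher, and 2 only through SKOV3 mock, 2 of them lower. TMPRSS4, at 0.487 CPM in SKOV3 mock, was measured only through OVCAR3 mock. This selection favours such calls. At a minimum of 5 CPM 21 of 77 were higher and 0 lower, with no share of all genes at that minimum given here.

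Between the knockout libraries, OVCAR3 KO over SKOV3 KO, the order was another. ADAM10 was higher, at 1.83 (1.74 to 1.93), and PLAU and MMP15 lower, at -1.75 (-2.00 to -1.53) and -1.51 (-1.75 to -1.30). That is 1 of 9 higher and 2 lower, where of 15616 measured genes 25.3% were higher and 14.5% lower, 39.9% in all. TIMP2 was at -0.14 (-0.28 to 0.001), or 0.07 with the trend removed, and MMP14 at -0.11, or 0.19. PLAUR was at 0.33, ADAM17 at 0.49, PLAT at -0.54 and TIMP1 at -0.69. This comparison and the previous ones share libraries and are not independent of each other.

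With the lines taken as replicates, edgeR's quasi-likelihood test with Benjamini-Hochberg adjustment over 13693 genes called 0 genes between KO and mock, and DESeq2 and limma-voom called 0 as well. At an unadjusted p below 0.05 it had 147 genes (1.07%), none of the 9 among them. The adjusted p of the 9 genes in that edgeR fit lay between 0.957 and 0.990, with log2 fold changes of -1.15 for TIMP2, -0.92 for MMP15 and -0.91 for PLAU. Between the lines, with both states as replicates, the same edgeR fit called 5 genes (0.0365%), 0 of the 9 among them. PLAU (log2 fold change -1.18, adjusted p = 0.337) and ADAM10 (1.37, adjusted p = 0.303) had unadjusted p-values of 0.0235 and 0.0134 there, while 1668 of the 13693 genes (12.2%) had one below 0.05. For both genes each OVCAR3 library lay on the same side of both SKOV3 libraries, which also held for PLAUR, PLAT, MMP14 and ADAM17. For MMP14 the intervals included 0, both between the mock libraries and between the KO libraries. The share of all genes ordered this way was not computed, so nothing is read from it. The fit has 1 residual degree of freedom per gene, which is the difference of the KO over mock ratio between the lines. Without the OVCAR3 KO library, an edgeR fit holds 1 OVCAR3 library and takes its spread from the SKOV3 pair alone. Only its log2 fold changes between the lines are given. They were 2.14 for TIMP2, 1.18 for PLAUR, 1.03 for ADAM10, 0.51 for ADAM17, 0.33 for TIMP1 and 0.30 for MMP15. PLAU was at -0.45, PLAT at -0.38 and MMP14 at -0.14. TIMP1 and MMP15 were at -0.16 and -0.60 in the fit with all libraries, so their signs turned.

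The genes whose levels moved most like those of a member over the 4 libraries were sought among 10030 genes with 5 CPM or more in all of them, by the root mean square difference of centred log2 levels. For PLAU these were YRDC (0.037) and SRP68 (0.077), for PLAUR UBASH3B (0.020) and RFX2 (0.030), and for TIMP2 TSC22D3 (0.092) and ARHGEF2 (0.096). TSC22D3 was at 16.3, 16.9, 68.4 and 12.9 CPM and ARHGEF2 at 49.6, 42.7, 201 and 45.7 CPM, both highest in OVCAR3 mock, as TIMP2 was. Among the 9 genes themselves, the closest pair was MMP14 and ADAM17, at 0.31, and the most distant PLAU and ADAM10, at 1.48. With 4 libraries such likeness is a description and carries no test.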

How the data were processed

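RNA-seq was analysed for 4 libraries, 1 per group, grouped by sample title. Per the labels' protocols, RNA extracted with Trizol went into NEBNext Ultra II Directional libraries, which keep the strand. TopHat and the build GRCh38 were used, per the submitters' processing notes, and how reads were counted (tool, annotation, strand) is not given in the sources used here. Raw counts per gene symbol were deposited (58173 rows, 52402 symbols). Rows of the 2687 symbols found in several rows (0.351% to 0.465% of the counts) were summed, and each member had 1 row. A count of 0 allows up to 3 counts, 0.136 to 0.198 CPM.

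TMM factors of edgeR 4.0.16 (R 4.3.3) were 1.02, 1.04, 1.01 and 0.931 for SKOV3 mock, SKOV3 KO, OVCAR3 mock and OVCAR3 KO, computed on genes with 1 CPM in at least 2 libraries. Intervals of count ratios are exact Clopper-Pearson or conditional intervals from counts without the prior count. PCR reads without molecular identifiers are not independent molecules, so these limits hold for counting error alone. edgeR's quasi-likelihood test was fitted on all 4 libraries with line and state, DESeq2 1.42.0 and limma 3.58.1 being alternatives, and its procedure was tested on simulated counts. The outcome of that check is not reported here, so nothing is read from it. With 1 library per group, the residual of that fit is the difference of the KO over mock ratio between the lines. A p-value here rests on that difference and not on a spread between cultures of a group. Nothing beyond the labels says that the cultures were separate, so the difference may in part be technical. GC content and length came from the longest GENCODE 29 transcript, the exon length per kilobase from the union of its basic exons, and coordinates and promoters from RefSeq GRCh38.p14, to which 88.61% of the symbols matched. Promoter windows on chromosome 8, which holds PLAT, were left out of the motif search and its background. The GC and length trend was a spline with 5 degrees of freedom each, fitted to protein-coding genes.

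The members and lists were chosen with earlier results of these data known. All 9 members are named. One gene of the plasminogen list is not reported here and was left out of the list's counts. From each list, with 100 summed counts, up to 3 genes per direction past the size rule are named for the OVCAR3 pair, up to 2 whose interval excludes 0 for the SKOV3 pair, and some of up to 2 past the rule for the mock libraries. MMP2, MMP9, PLG and genes that overlap a member were named in addition, after their values were seen. Alternatives were other scalings, priors of 0.5 and 5, no filter or 5 CPM, folds of 1.5 and 3, mitochondrial rows left out, the trend removed, other tests and designs, the OVCAR3 KO library left out and, added after seeing the data, TMM over all genes.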

Additional observations from a re-analysis of the deposited data

Results flagged for a closer look

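ADAM10 moved in opposite directions in the lines. The log2 ratio of KO over mock was -0.27 in SKOV3 (2012 counts in mock, 1167 in KO) and 0.66 in OVCAR3 (2750 and 3891 counts), with counting intervals on opposite sides of 0. The difference was not tested, since each group holds 1 library, and the share of all genes with such opposite intervals was not computed. Both signs held under every alternative run on the ratios, where the value lay between -0.28 and -0.24 in SKOV3 and between 0.13 and 0.66 in OVCAR3, the lowest with the trend on GC content and length removed. HSP90AB4P, a pseudogene inside ADAM10 on the same strand, had 4, 0, 2 and 32 counts in SKOV3 mock, SKOV3 KO, OVCAR3 mock and OVCAR3 KO.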

How the results depend on the processing

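No paired analysis was possible because the groups share a single replicate number, beyond the line term that edgeR's fit already holds, which sets KO against mock within a line. Of the values counted per comparison, 75 stayed within 1.5 times the one reported and 27 moved further. For members in the OVCAR3 pair the count of 3 became 5 with DESeq2 size factors, library totals or TMM over all genes, and 6 at 1.5-fold. Between the mock libraries, 2 members became 5 at 1.5-fold, 1 at 3-fold and 1 with the trend removed. Listed genes in SKOV3 went from 1 to 2 (library totals, prior 0.5, trend removed), 9 (no filter), 6 (1.5-fold) and 0 (5 CPM, 3-fold), in OVCAR3 from 49 to 21 at 3-fold, between mocks from 27 to 43 (no filter), 48 (1.5-fold) and 15 (3-fold), and between knockouts from 40 to 61 (1.5-fold) and 20 (3-fold). The shares of all genes past the rule under these settings are not given here, so nothing is read from these changes of count. Without a filter edgeR called 1 gene between KO and mock. Between the lines 5 calls became 187 with DESeq2, 226 without a filter, 61 at 5 CPM, 0 with DESeq2 size factors, 0 with 1 factor and 6401 without the OVCAR3 KO library, the lone OVCAR3 library being assumed to vary like the SKOV3 pair.

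Signs turned for MMP14 in OVCAR3 (-0.13, -0.041 and -0.22 with DESeq2 size factors, library totals and TMM over all genes), for MMP15 and TIMP2 in SKOV3 (0.0034 and 0.014 with library totals), for MMP15 between mocks (-0.22) and MMP14 and TIMP2 between knockouts (0.19 and 0.066) with the trend removed. In edgeR's fit MMP14 turned to -0.040 with DESeq2 size factors. Without the OVCAR3 KO library, in a fit with no line term, ADAM10 turned to -0.79 (KO against mock). That fit sets SKOV3 KO against both mock libraries, so its value mixes line and state, and the SKOV3 pair alone gave -0.27. Between lines, in a fit with no state term, MMP15 turned to 0.30 and TIMP1 to 0.33 without that library. Beyond these constructions the cause was not tested. PLAT, with 56 to 179 counts, has the widest intervals.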
